A study of Homo sapiens with 10 samples.

Results

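The histone deacetylases other than HDAC3 were followed in MM.1S, a cell line from human multiple myeloma, after knockdown of HDAC3 or DNMT1. The 10 genes were HDAC1, HDAC2 and HDAC8 of class I, HDAC4, HDAC5, HDAC7 and HDAC9 of class IIa, HDAC6 and HDAC10 of class IIb, and HDAC11 of class IV. They were chosen by name, and all 10 were measured among 19775 genes, by 25 probe sets of a 3′ expression array. The brightest probe set of a gene, by its mean over the 10 arrays, stood for that gene. The question was whether any of them was raised where HDAC3 was lowered, or was lowered along with it.

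The 10 arrays formed 5 groups of 2, all of MM.1S cells infected with lentivirus carrying a short hairpin RNA, with RNA taken 48 h after infection. The groups were shHDAC3#1 and shHDAC3#2, with hairpins against HDAC3, shDNMT1#1 and shDNMT1#2, with hairpins against the DNA methyltransferase DNMT1, and shLuc, with a hairpin against luciferase as the control. The labels name shLuc as the control of the HDAC3 hairpins, and the same 2 shLuc arrays were used here for both knockdowns. The sources used here do not say whether the DNMT1 arrays were infected and hybridized together with the others, so any batch between them and a DNMT1 difference, against shLuc or against HDAC3 knockdown, cannot be told apart. The labels do not say whether arrays of a group came from separate infections, so the p-values rest on spread between arrays that may be only technical.

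Histone deacetylases remove acetyl groups from lysines of histones and other proteins. Class I enzymes are the catalytic subunits of nuclear co-repressor complexes, with HDAC1 and HDAC2 in SIN3, NuRD and CoREST and HDAC3 in NCoR/SMRT. Class IIa enzymes have little deacetylase activity of their own, bind MEF2 transcription factors and recruit the HDAC3 complex. Class IIb and class IV enzymes act on substrates other than histones, such as tubulin, polyamines and fatty-acylated lysines, and inhibitors of several of these enzymes are used against myeloma.

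HDAC9 and HDAC2 fell in both knockdowns, HDAC1 fell in DNMT1 knockdown, and the promoter windows of these 3 genes are shown because CpG sites are the substrate of DNMT1. Each window holds 250 bases before and 50 after an annotated start, from RefSeq on GRCh38.p14. Capitals mark matches, on either strand, to a MEF2 motif (CTATTTATA or CTATTTTTA), a CCAAT box (CCAAT), a CHR (TTTGAA) or an E2F motif (TTTGGCGC or TTTCGCGC).
HDAC9, chr7:18086575-18086874, plus strand: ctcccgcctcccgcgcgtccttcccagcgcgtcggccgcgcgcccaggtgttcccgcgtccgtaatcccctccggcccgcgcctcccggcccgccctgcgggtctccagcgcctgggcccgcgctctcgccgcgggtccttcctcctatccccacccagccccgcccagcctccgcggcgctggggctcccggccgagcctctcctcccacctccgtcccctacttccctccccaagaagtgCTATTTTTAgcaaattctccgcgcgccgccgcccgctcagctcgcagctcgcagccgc
HDAC2, chr6:113971099-113971398, minus strand: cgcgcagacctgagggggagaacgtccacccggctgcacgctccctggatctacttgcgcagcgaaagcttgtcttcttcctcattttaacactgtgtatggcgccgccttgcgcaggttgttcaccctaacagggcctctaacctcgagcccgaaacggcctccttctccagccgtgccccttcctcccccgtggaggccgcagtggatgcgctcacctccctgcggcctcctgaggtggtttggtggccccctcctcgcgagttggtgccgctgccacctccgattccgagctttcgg
HDAC1, chr1:32291833-32292132, plus strand: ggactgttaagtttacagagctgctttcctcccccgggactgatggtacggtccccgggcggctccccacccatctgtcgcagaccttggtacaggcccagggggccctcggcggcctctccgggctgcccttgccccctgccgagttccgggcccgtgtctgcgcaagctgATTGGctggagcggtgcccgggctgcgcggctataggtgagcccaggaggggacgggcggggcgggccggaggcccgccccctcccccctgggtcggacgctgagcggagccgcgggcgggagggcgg
The HDAC9 window had 41 CpG sites and a GC content of 75%, the HDAC2 window 24 CpG sites and 64%, and the HDAC1 window 28 CpG sites and 73.7%. The HDAC9 window held 1 match to the MEF2 motif, which occurs in 0.84% of 35116 windows searched. The HDAC1 window held 1 CCAAT box, present in 34.6% of windows, and the HDAC2 window held none of these motifs. The GC box GGGCGG, not capitalised and found in 45% of windows, occurred 6 times in the HDAC1 window and 3 times in the HDAC9 window. HDAC9 had 5 windows, and the other 4 had 0 to 5 CpG sites each and no MEF2 match. The share of 0.84% is per window, whereas 5 were searched for HDAC9. Counted along the chromosome, HDAC9 windows 2, 3 and 5 held 2 CCAAT boxes each, and windows 2 and 3 overlap. These matches describe the letters only. DNA methylation was not measured, and which start is used in MM.1S cells was not tested.

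The targeted transcripts were examined first. HDAC3 measured 5.97 and 5.72 in shHDAC3#1, 5.83 and 5.52 in shHDAC3#2, 7.09 and 6.53 in shDNMT1#1 and 6.39 and 6.28 in shDNMT1#2, against 7.26 and 6.61 in shLuc (log2 RMA signal). All 4 HDAC3 knockdown arrays lay below both shLuc arrays, and HDAC3 fell to 44.2% of shLuc there (log2 change -1.18 ± 0.16 SE, limma adjusted p = 1.2e-05). DNMT1 fell to 19.1% of shLuc in DNMT1 knockdown (log2 change -2.39 ± 0.10 SE, limma adjusted p = 9.5e-12) and to 52.7% in HDAC3 knockdown (-0.92 ± 0.10 SE, limma adjusted p = 1.6e-06). HDAC3 also fell with shDNMT1#2 (-0.60, adjusted p = 0.0186), a call lost without shLuc replicate 1 (-0.28, adjusted p = 0.425) or either shDNMT1#2 array (0.0593 and 0.11), and over both DNMT1 hairpins it gave -0.36 (adjusted p = 0.106). Both targets had a single probe set. In bulk RNA, fewer cells that express a gene and less RNA per cell cannot be told apart.

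The arrays were not alike in every technical measure. The SD of all log2 values was 1.843 to 1.915 in the 8 knockdown arrays, against 1.929 and 1.943 in shLuc. RNA integrity was read from ACTB, whose 3′ probe set exceeded its 5′ one by 0.98 and 1.02 in shHDAC3#1, against 0.63 to 0.81 in the other 8 arrays. Arrays of 1 group correlated with r of 0.9937 to 0.9963 across genes. All 8 plasma cell and myeloma markers were measured, and none was below 5.89 in any array. The B cell marker MS4A1 lay between 2.76 and 3.44, but the other measured one, PAX5, between 7.39 and 7.8. Among markers of other cell types, LYZ was low (3.81 to 4.06). COL1A1 (8.34 to 8.68), KRT8 (7.15 to 7.41) and CD3D (6.54 to 6.83) were above 5.89 in every array, so signal alone did not set the plasma cell markers apart. The summed level of the 8 markers was 70 to 75 in the knockdown arrays, against 75.4 and 75.5 in shLuc, and 3 of them fell in HDAC3 knockdown and 6 in DNMT1 knockdown, with 1 that rose in each. Of 15 markers of other cell types, HBB fell in both knockdowns, and EPCAM and KRT18 rose with shDNMT1#2, where the summed level of the 3 epithelial markers was 17.3 to 18.5, against 16.7 in both shLuc arrays. The part of these differences in the results for the histone deacetylases was not tested.

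In HDAC3 knockdown, 1 of the 10 genes rose, HDAC7, and 2 fell, HDAC2 and HDAC9. Of all 19775 genes, 3.96% rose, 15.3% fell and 19.2% were called in either direction, so 3 called members of 10 were not far from the share of all genes. In DNMT1 knockdown, HDAC11 rose and HDAC1, HDAC2 and HDAC9 fell, against 6.66% and 13.5% of all genes (20.2% in either direction). Calls were made where limma gave an adjusted p under 0.05, with n = 4 knockdown and 2 shLuc arrays. At an unadjusted p under 0.05, 5 of the 10 genes passed in HDAC3 knockdown and 6 in DNMT1 knockdown, beside 33.8% and 34.6% of all genes. The median log2 change of the 10 genes was 0.06 in both, beside 0.05 and 0.07 for all genes.

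**Figure D1:**
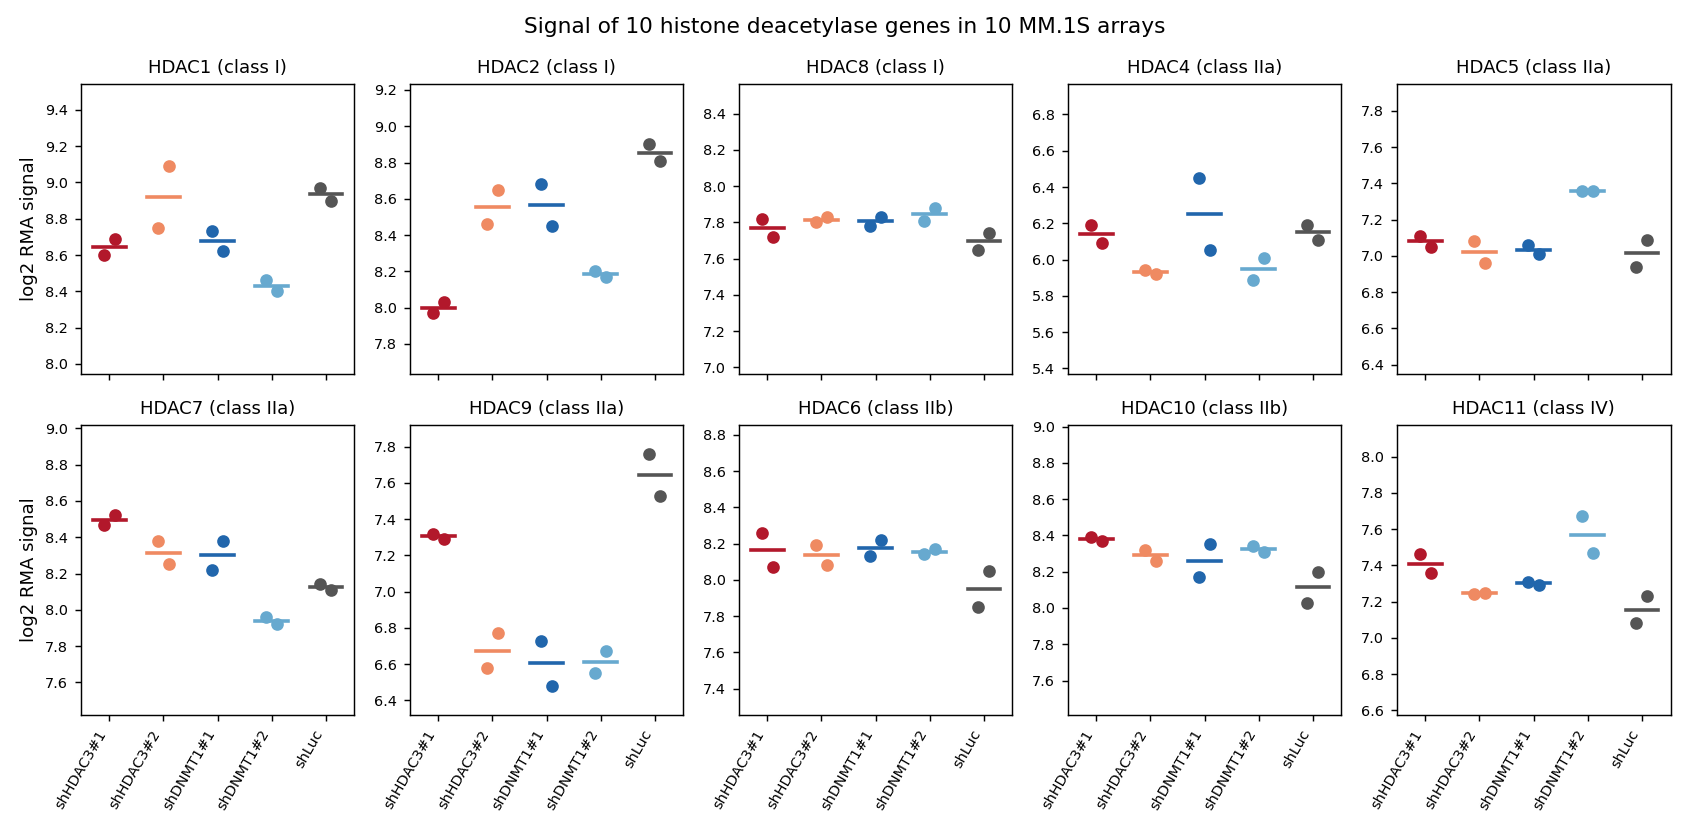
Log2 RMA signal (vertical axis) of the 10 histone deacetylase genes in the 5 groups, with a point for each array and a line at the group mean. Every panel spans the same range of log2 units. HDAC9 and HDAC2 lie below shLuc in all 8 knockdown arrays, HDAC6 and HDAC11 lie above it, and HDAC7 lies above shLuc with both HDAC3 hairpins and below it with shDNMT1#2.

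**Figure D2:**
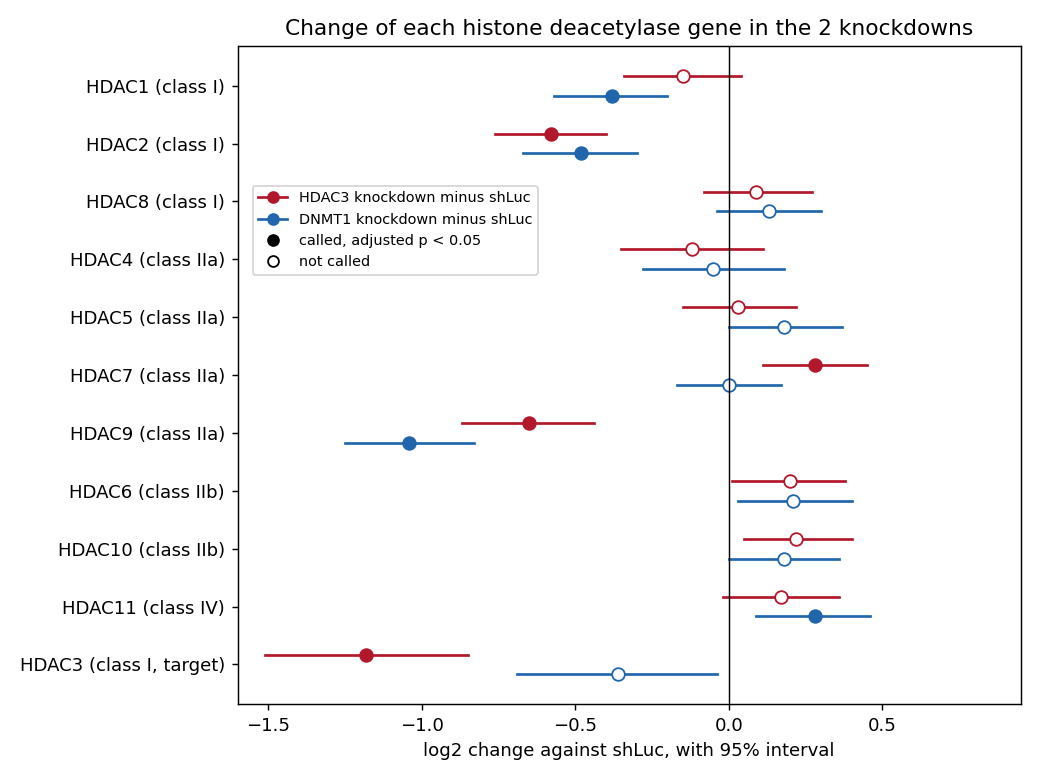
Log2 change against shLuc (horizontal axis) of each gene in HDAC3 knockdown and in DNMT1 knockdown, with limma's 95% interval (4 knockdown and 2 shLuc arrays). Filled points were called. HDAC9 has the lowest value of the 10 genes in both knockdowns (-0.65 and -1.04), and no gene's value is above 0.28.

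Class I held the clearest decreases beside HDAC9. HDAC2, a catalytic subunit of SIN3, NuRD and CoREST, measured 7.97 and 8.03 in shHDAC3#1, 8.46 and 8.65 in shHDAC3#2, 8.68 and 8.45 in shDNMT1#1 and 8.20 and 8.17 in shDNMT1#2, against 8.90 and 8.81 in shLuc. All 8 knockdown arrays lay below both shLuc arrays, with shHDAC3#1 lowest and shDNMT1#2 next. HDAC2 fell to 66.9% of shLuc in HDAC3 knockdown (log2 change -0.58 ± 0.09 SE, limma adjusted p = 4.6e-05) and to 71.5% in DNMT1 knockdown (-0.48 ± 0.09 SE, limma adjusted p = 3.5e-04).

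The decrease of HDAC2 was not equal between hairpins of 1 target. With shHDAC3#1 it was -0.86 ± 0.10 (SE, n = 2 against 2 arrays, limma, adjusted p = 1.9e-06) and with shHDAC3#2 -0.30 ± 0.10 (adjusted p = 0.0603), and the difference of 0.55 between these hairpins was itself called (adjusted p = 4.7e-04). With shDNMT1#2 it was -0.68 (adjusted p = 3.2e-05) and with shDNMT1#1 -0.29 (adjusted p = 0.0853), with a difference of -0.39 (adjusted p = 0.0137) that was lost without shDNMT1#1 replicate 1 (-0.27, adjusted p = 0.148) or either shDNMT1#2 array (0.0686 and 0.103). Leaving out 1 array brought in calls too: HDAC2 was called with shHDAC3#2 without shHDAC3#2 replicate 2 (adjusted p = 0.0426) or either shDNMT1#1 array (0.0286 and 0.0288), and with shDNMT1#1 without its replicate 1 (-0.41, adjusted p = 0.0164). The shHDAC3#1 arrays also had the high ACTB difference, and with shHDAC3#2 alone for HDAC3 knockdown, a setting chosen after seeing the data, HDAC2 was not called (-0.30, adjusted p = 0.0835). A second, dimmer HDAC2 probe set, 242141_at, gave 0.04 in HDAC3 knockdown and 0.06 in DNMT1 knockdown. With both averaged, HDAC2 was -0.27 in HDAC3 knockdown (adjusted p = 0.0225), -0.21 in DNMT1 knockdown (adjusted p = 0.0602), 0.27 between the HDAC3 hairpins (adjusted p = 0.0588) and -0.24 between the DNMT1 hairpins (adjusted p = 0.0818). Of all genes, 12.6% were called between the HDAC3 hairpins and 12% between the DNMT1 hairpins.

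HDAC1, the closest relative of HDAC2 and its partner in the same complexes, measured 8.60 and 8.69 in shHDAC3#1, 8.75 and 9.09 in shHDAC3#2, 8.73 and 8.62 in shDNMT1#1 and 8.46 and 8.40 in shDNMT1#2, against 8.97 and 8.90 in shLuc. The 4 DNMT1 knockdown arrays lay below shLuc, while 1 shHDAC3#2 array lay above it. HDAC1 fell to 76.7% of shLuc in DNMT1 knockdown (log2 change -0.38 ± 0.09 SE, limma adjusted p = 4.2e-03), a call lost without shLuc replicate 1 (-0.35, adjusted p = 0.111) and after a further quantile normalization of the arrays (-0.17, adjusted p = 0.0842). In HDAC3 knockdown its change was -0.15 ± 0.09 (95% interval -0.34 to 0.04, adjusted p = 0.239). By hairpin, HDAC1 fell with shDNMT1#2 (-0.51, adjusted p = 1.0e-03) and with shHDAC3#1 (-0.29, adjusted p = 0.0483), but the second of these calls was lost in 6 of the 10 fits that left out 1 array (adjusted p up to 0.288, without shLuc replicate 1), and after the further quantile normalization that value was -0.02 (adjusted p = 0.9). HDAC1 was read by 1 probe set.

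HDAC8, a class I enzyme that works outside the large co-repressor complexes and deacetylates cohesin, measured 7.82 and 7.72 in shHDAC3#1, 7.80 and 7.83 in shHDAC3#2, 7.78 and 7.83 in shDNMT1#1 and 7.81 and 7.88 in shDNMT1#2, against 7.65 and 7.74 in shLuc. Only 1 knockdown array, of shHDAC3#1, lay within the shLuc range, and the others lay just above it. The change was 0.09 in HDAC3 knockdown (95% interval -0.08 to 0.27, adjusted p = 0.432) and 0.13 in DNMT1 knockdown (-0.04 to 0.30, adjusted p = 0.282). HDAC8 had the smallest spread of group means of the 10 genes, 0.15.

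The probe sets of HDAC8 did not move alike. The dimmest of its 3, 223908_at, measured 5.38 and 5.42 in shHDAC3#1, 5.22 and 5.35 in shHDAC3#2, 5.31 and 5.47 in shDNMT1#1 and 5.24 and 5.22 in shDNMT1#2, against 5.65 and 5.68 in shLuc. All 8 knockdown arrays lay below shLuc for this probe set, and it fell in both knockdowns (log2 change -0.32 ± 0.10 SE, limma adjusted p = 0.0392, and -0.35 ± 0.10 SE, limma adjusted p = 0.0241, limma over 41097 probe sets). The third, 223345_at, gave 0.06 and 0.18, neither called. Which transcripts each probe set reads was not tested.

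Class IIa held the gene with the widest range of the 10, HDAC9. HDAC9, a MEF2-binding deacetylase that also makes a short form without the catalytic domain, measured 7.32 and 7.29 in shHDAC3#1, 6.58 and 6.77 in shHDAC3#2, 6.73 and 6.48 in shDNMT1#1 and 6.55 and 6.67 in shDNMT1#2, against 7.76 and 7.53 in shLuc. All 8 knockdown arrays lay below both shLuc arrays, and the shHDAC3#1 arrays stood between shLuc and the other 6. HDAC9 fell to 63.5% of shLuc in HDAC3 knockdown (log2 change -0.65 ± 0.10 SE, limma adjusted p = 6.3e-05) and to 48.7% in DNMT1 knockdown (-1.04 ± 0.10 SE, limma adjusted p = 2.6e-07).

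HDAC9 was called lower with each of the 4 hairpins, as were 3.18% of all genes. Its log2 change was -0.34 ± 0.12 with shHDAC3#1 (adjusted p = 0.0387), -0.97 ± 0.12 with shHDAC3#2 (adjusted p = 5.1e-06), -1.04 ± 0.12 with shDNMT1#1 (adjusted p = 3.9e-06) and -1.04 ± 0.12 with shDNMT1#2 (adjusted p = 9.7e-07, SE, n = 2 against 2 arrays each, limma). The hairpins against HDAC3 differed, by -0.63 for shHDAC3#2 minus shHDAC3#1 (adjusted p = 6.0e-04), while those against DNMT1 gave a difference of 0 with a 95% interval of -0.25 to 0.24. From low to high, the group means were 6.61 in both DNMT1 groups and 6.68 in shHDAC3#2, which were not called different, then 7.30 in shHDAC3#1 and 7.65 in shLuc, and both of these last steps were called. The call with shHDAC3#1 was lost without shLuc replicate 1 (-0.23, adjusted p = 0.369) and without either shHDAC3#1 array (adjusted p = 0.139 and 0.148).

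The decrease of HDAC9 was seen with its brightest probe set, 205659_at, and only in part with the other 4. The probe set 230968_at, with a mean of 4.38, fell in DNMT1 knockdown (-0.43 ± 0.12 SE, limma adjusted p = 0.0203) and gave -0.29 in HDAC3 knockdown (adjusted p = 0.119). The probe set 234393_at, with a mean of 5.63, gave 0.15 in HDAC3 knockdown and 0.07 in DNMT1 knockdown, and 1552758_at and 1552760_at, with means of 4.29 and 3.44, were called in neither. With the mean of the 5 probe sets, HDAC9 fell in DNMT1 knockdown (-0.34, adjusted p = 0.0172) and was not called in HDAC3 knockdown (-0.18, adjusted p = 0.156) or between the HDAC3 hairpins (-0.29, adjusted p = 0.0784). By hairpin it was then called with shDNMT1#1 alone. Whether these probe sets read the long or the short form was not tested.

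**Figure D3:**
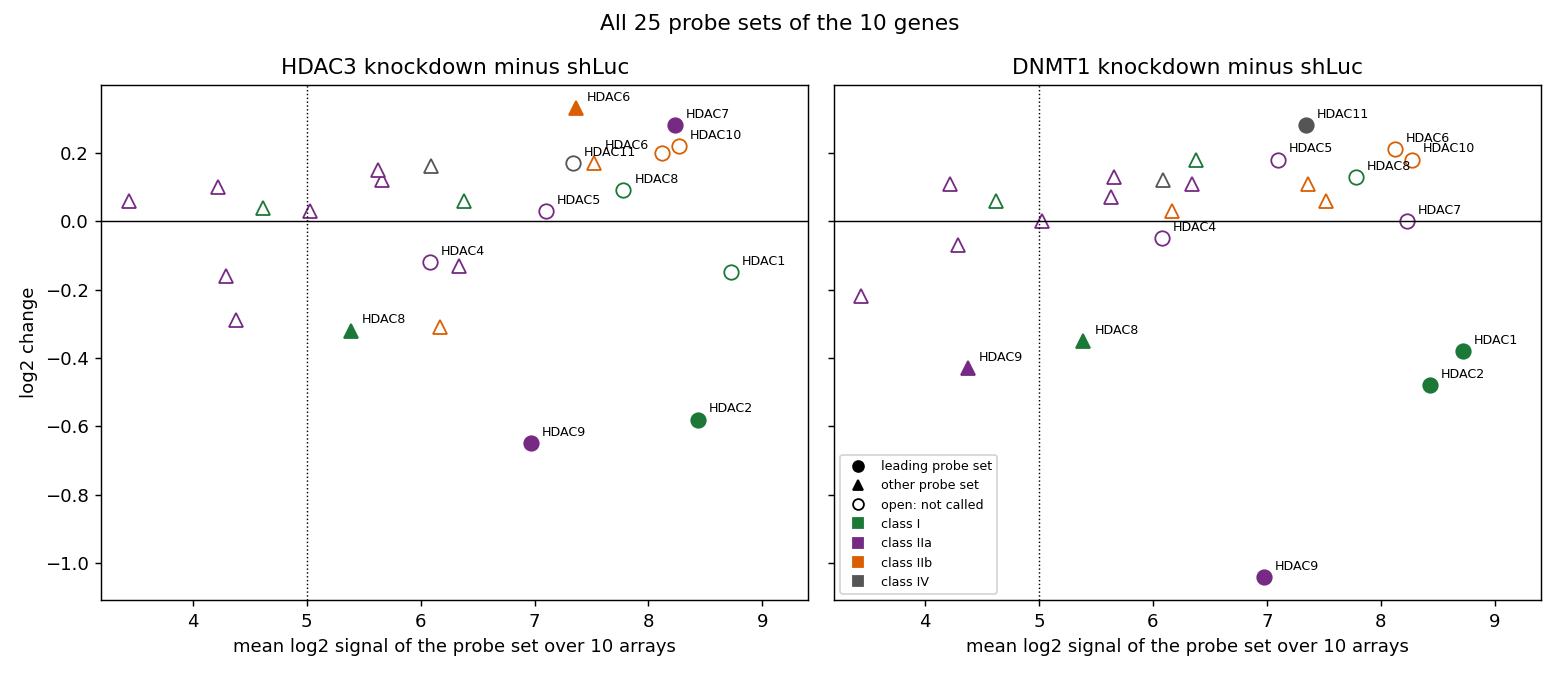
Log2 change against shLuc (vertical axis) of all 25 probe sets of the 10 genes, by their mean log2 signal over 10 arrays (horizontal axis), in HDAC3 knockdown (left) and DNMT1 knockdown (right). Circles are the probe sets that represent a gene, triangles the others, filled symbols were called, and the dotted line marks a mean of 5. The called decreases of HDAC8 come from a probe set that does not represent the gene, and 230968_at is the called HDAC9 triangle in DNMT1 knockdown.

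HDAC7, a class IIa enzyme of lymphoid and endothelial cells, measured 8.47 and 8.52 in shHDAC3#1, 8.38 and 8.25 in shHDAC3#2, 8.22 and 8.38 in shDNMT1#1 and 7.96 and 7.92 in shDNMT1#2, against 8.14 and 8.11 in shLuc. The arrays of both HDAC3 hairpins and of shDNMT1#1 lay above shLuc and those of shDNMT1#2 below it. HDAC7 rose to 121% of shLuc in HDAC3 knockdown (log2 change 0.28 ± 0.08 SE, limma adjusted p = 0.0202), the one increase among the 10 genes there. By hairpin it rose with shHDAC3#1 (0.37, adjusted p = 7.0e-03, but 0.061 without shHDAC3#1 replicate 2), and the value with shHDAC3#2 was 0.19 (adjusted p = 0.269).

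The HDAC7 increase was lost without shLuc replicate 1 (adjusted p = 0.128), shLuc replicate 2 (0.0806), shHDAC3#1 replicate 2 (0.0584) or shHDAC3#2 replicate 1 (0.0801), at values of 0.25 to 0.29. Its probe set, 217937_s_at, is of a kind that can cross-hybridize, and the other, 236326_at, with a mean of 4.22, gave 0.10, and with both averaged HDAC7 was not called (0.19, adjusted p = 0.0743). In DNMT1 knockdown the change of HDAC7 was 0.00 (95% interval -0.17 to 0.17), the mean of 0.18 with shDNMT1#1 and -0.18 with shDNMT1#2, which differed by -0.36 (shDNMT1#2 minus shDNMT1#1, adjusted p = 0.0152). That difference was lost without shDNMT1#1 replicate 2 (adjusted p = 0.119) or either shDNMT1#2 array (0.0671 and 0.116).

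HDAC5, which shuttles between nucleus and cytoplasm in response to kinases, measured 7.11 and 7.05 in shHDAC3#1, 7.08 and 6.96 in shHDAC3#2, 7.06 and 7.01 in shDNMT1#1 and 7.36 and 7.36 in shDNMT1#2, against 6.94 and 7.09 in shLuc. The shDNMT1#2 arrays stood above all others, which overlapped. HDAC5 rose with shDNMT1#2 (log2 change 0.34, adjusted p = 0.0169) and gave 0.02 with shDNMT1#1 (adjusted p = 0.927), a difference of 0.32 between them (adjusted p = 0.0429) that was lost in 8 of the 10 fits leaving out 1 array, each array but those of shLuc. The second HDAC5 probe set, 202455_at, with a mean of 6.34, gave 0.04 with shDNMT1#2 and -0.15 between the DNMT1 hairpins, the opposite sign, and with both averaged HDAC5 was called in neither (0.19, adjusted p = 0.0779, and 0.09, adjusted p = 0.511). The rise was lost without shLuc replicate 1 (0.27, adjusted p = 0.166) and without either shDNMT1#2 array (adjusted p = 0.0759 and 0.0745). Over both hairpins the change was 0.18 in DNMT1 knockdown (adjusted p = 0.148), and it was 0.03 in HDAC3 knockdown (95% interval -0.15 to 0.22).

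HDAC4, a related MEF2 co-repressor, measured 6.19 and 6.09 in shHDAC3#1, 5.94 and 5.92 in shHDAC3#2, 6.45 and 6.05 in shDNMT1#1 and 5.89 and 6.01 in shDNMT1#2, against 6.19 and 6.11 in shLuc. The groups overlapped except for lower values in shHDAC3#2 and shDNMT1#2. Its change was -0.12 in HDAC3 knockdown (95% interval -0.35 to 0.11, adjusted p = 0.464) and -0.05 in DNMT1 knockdown (-0.28 to 0.18, adjusted p = 0.761). Between the DNMT1 hairpins it was called without shDNMT1#1 replicate 2 (-0.50, adjusted p = 0.0145) and not with all arrays.

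Neither class IIb gene was called in either knockdown by limma, though both had an unadjusted p under 0.05 in each. HDAC6, the cytoplasmic tubulin deacetylase, measured 8.26 and 8.07 in shHDAC3#1, 8.19 and 8.08 in shHDAC3#2, 8.13 and 8.22 in shDNMT1#1 and 8.14 and 8.17 in shDNMT1#2, against 7.85 and 8.05 in shLuc. All 8 knockdown arrays lay above both shLuc arrays, the lowest by a small margin, and the 4 knockdown groups overlapped. The change was 0.20 in HDAC3 knockdown (95% interval 0.01 to 0.38, adjusted p = 0.123) and 0.21 in DNMT1 knockdown (0.03 to 0.40, adjusted p = 0.0952, but 0.0495 without shLuc replicate 2). Its probe sets differed in direction in HDAC3 knockdown: 211722_s_at rose (0.33 ± 0.10 SE, limma adjusted p = 0.0236), and 206846_s_at gave -0.31 (adjusted p = 0.0569). By hairpin, both were called with shHDAC3#1 (0.52 and -0.42) and not with shHDAC3#2 (0.14 and -0.21). The shHDAC3#1 arrays also had the high ACTB difference.

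HDAC10, a polyamine deacetylase, measured 8.39 and 8.37 in shHDAC3#1, 8.32 and 8.26 in shHDAC3#2, 8.17 and 8.35 in shDNMT1#1 and 8.34 and 8.31 in shDNMT1#2, against 8.03 and 8.20 in shLuc. The 4 HDAC3 knockdown arrays lay above shLuc, and 1 shDNMT1#1 array lay within its range. The change was 0.22 in HDAC3 knockdown (95% interval 0.05 to 0.40, adjusted p = 0.0697) and 0.18 in DNMT1 knockdown (adjusted p = 0.134). It was called in HDAC3 knockdown without shLuc replicate 2 (0.31, adjusted p = 0.0447) or either shDNMT1#1 array (0.0441 and 0.0448). After a further quantile normalization of the arrays, HDAC10 was called higher in both (0.34, adjusted p = 6.2e-03, and 0.29, adjusted p = 0.0179), as was HDAC6 (0.29, adjusted p = 0.0242, and 0.30, adjusted p = 0.0232). By hairpin, HDAC10 gave 0.27 with shHDAC3#1 (limma adjusted p = 0.0512) and 0.18 with shHDAC3#2 (limma adjusted p = 0.314). It gave 0.15 with shDNMT1#1 and 0.21 with shDNMT1#2, neither called. A second HDAC10 probe set, 226672_s_at, with a mean of 7.52, gave 0.17 in HDAC3 knockdown and 0.06 in DNMT1 knockdown, neither called.

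HDAC11, the class IV enzyme that removes fatty acyl groups from lysines, measured 7.46 and 7.36 in shHDAC3#1, 7.24 and 7.25 in shHDAC3#2, 7.31 and 7.29 in shDNMT1#1 and 7.67 and 7.47 in shDNMT1#2, against 7.08 and 7.23 in shLuc. All 8 knockdown arrays lay above both shLuc arrays, with shDNMT1#2 highest. HDAC11 rose to 121% of shLuc in DNMT1 knockdown (log2 change 0.28 ± 0.09 SE, limma adjusted p = 0.0345), with 0.41 for shDNMT1#2 (adjusted p = 5.9e-03, but 0.0905 without shLuc replicate 1 and 0.0962 without shDNMT1#2 replicate 1) and 0.14 for shDNMT1#1 (adjusted p = 0.453). The call was lost without shLuc replicate 1 (0.20, adjusted p = 0.394) and without shDNMT1#2 replicate 1 (0.23, adjusted p = 0.118). In HDAC3 knockdown the change was 0.17 (95% interval -0.02 to 0.36, adjusted p = 0.19). A second probe set, 227679_at, gave 0.16 and 0.12 in the knockdowns of HDAC3 and DNMT1, neither called, and with both averaged HDAC11 was not called in DNMT1 knockdown (0.20, adjusted p = 0.0856).

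**Figure D4:**
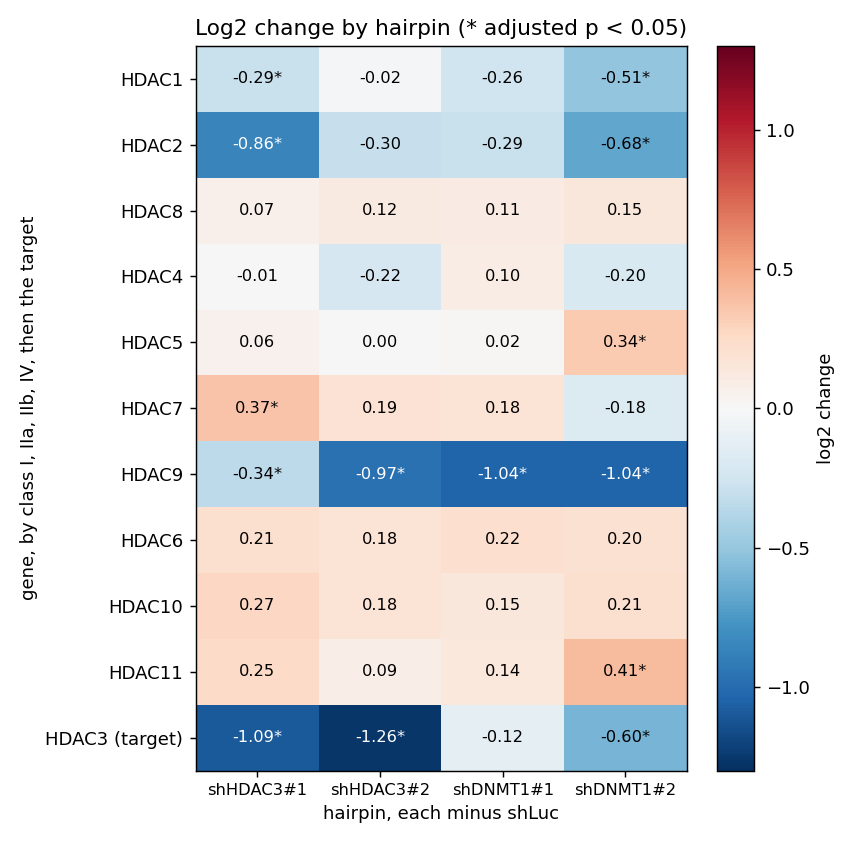
Log2 change of each gene (rows) with each hairpin against shLuc (columns, n = 2 against 2 arrays), coloured by its size, with an asterisk where the adjusted p was under 0.05. HDAC9 is the one member called with all 4 hairpins. HDAC2 is lowest with shHDAC3#1 and shDNMT1#2, and HDAC5 and HDAC11 were called with shDNMT1#2 only.

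By hairpin, more members were called where more of all genes were called. With shHDAC3#1, 1 member rose and 3 fell, beside 7.83% and 16.6% of all genes (24.4% in either direction). With shDNMT1#2, 2 rose and 3 fell, beside 11.6% and 15.2% (26.8% in either direction). With shHDAC3#2, HDAC9 fell and no other member was called, where 9.54% of all genes fell and 10.9% were called. With shDNMT1#1 it was again HDAC9 alone, where 6.81% fell and 8.15% were called. Without overlap, 4 members lay above shLuc in HDAC3 knockdown and 2 below it, beside 22.1% and 15.8% of all genes. In DNMT1 knockdown 3 lay above and 3 below, beside 20.2% and 13.9%. HDAC6 and HDAC11 lay above shLuc in all 8 knockdown arrays and HDAC2 and HDAC9 below it, beside 10.7% and 9.3% of all genes.

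The knockdowns were set against each other directly, without the shared shLuc arrays. DNMT1 knockdown minus HDAC3 knockdown called 2 of the 10 genes, both lower, beside 3.59% of all genes called lower and 9.59% in either direction. HDAC9 was lower in DNMT1 knockdown (mean 6.61) than in HDAC3 knockdown (mean 6.99), by -0.38 ± 0.08 (SE, n = 4 against 4 arrays, limma, adjusted p = 3.6e-03). HDAC7 was lower as well, at 8.12 in DNMT1 knockdown and 8.40 in HDAC3 knockdown (-0.28 ± 0.07 SE, limma adjusted p = 8.0e-03), a call lost without shHDAC3#2 replicate 1 (-0.25, adjusted p = 0.0543). With the probe sets of a gene averaged, both calls were lost (HDAC9 -0.16, adjusted p = 0.2, and HDAC7 -0.14, adjusted p = 0.159) and HDAC5 was called higher (0.19, adjusted p = 0.0421). Arrays of the knockdowns overlapped for both genes: for HDAC9, 1 shHDAC3#2 array lay among the DNMT1 arrays and the other just above them. Hairpin by hairpin, HDAC9 was called lower in the DNMT1 groups than in shHDAC3#1, but not than in shHDAC3#2. HDAC7 was called lower than in the HDAC3 groups with shDNMT1#2 and not with shDNMT1#1. HDAC1 gave -0.23 (95% interval -0.38 to -0.08, adjusted p = 0.0524) and HDAC2 0.10 (-0.05 to 0.24, adjusted p = 0.483). The HDAC1 difference was called without shHDAC3#2 replicate 1 (-0.31, adjusted p = 9.1e-03) or shDNMT1#1 replicate 1 (-0.26, adjusted p = 0.0401).

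The calls in the 2 knockdowns depended on how variation between hairpins and between arrays was counted. When hairpins were made a random block, hairpins of 1 target that differ add to the error. Limma then called 0 of the 10 genes in either knockdown (2 and 3 at an unadjusted p under 0.05). HDAC9 had an adjusted p of 0.221 in HDAC3 knockdown and 0.0706 in DNMT1 knockdown, and HDAC2 of 0.287 and 0.35. The target HDAC3 was itself not called in HDAC3 knockdown under this setting (-1.18, limma adjusted p = 0.108). The 0 calls there thus do not show that members were unchanged. DNMT1 stayed called in DNMT1 knockdown. With each array's SD as a covariate, a setting added once the data had been seen, limma also called 0 in either (0 and 1 at an unadjusted p under 0.05). HDAC9 was then -0.35 in HDAC3 knockdown (adjusted p = 0.858) and -0.73 in DNMT1 knockdown (adjusted p = 0.154), but it stayed called with shHDAC3#2 (-0.73, adjusted p = 0.024) and shDNMT1#1 (-0.87, adjusted p = 6.1e-04). HDAC2 was -0.22 in HDAC3 knockdown (adjusted p = 0.943) and -0.12 in DNMT1 knockdown (adjusted p = 0.923) under that setting.

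Partners of these enzymes were followed as listed groups. Of the subunits of the SIN3, NuRD, CoREST and MiDAC complexes, which carry HDAC1 and HDAC2, 30 of 32 listed genes were measured. In HDAC3 knockdown 2 rose and 9 fell, with a median of -0.04 beside 0.05 for all genes, and in DNMT1 knockdown 1 rose and 8 fell (median -0.06 beside 0.07). Of all genes, 3.96% rose and 15.3% fell in HDAC3 knockdown, and 6.66% rose and 13.5% fell in DNMT1 knockdown. MBD2, the methyl-CpG reader of NuRD, fell in both (log2 change -0.95 ± 0.09 SE in HDAC3 knockdown and -0.70 ± 0.09 SE in DNMT1 knockdown, adjusted p = 3.0e-07 and 1.4e-05). SAP30, a SIN3 subunit, gave -0.91 and -0.69, the histone chaperone RBBP4 -0.69 and -0.42, and the SIN3 subunit ARID4B -0.43 and -0.64, all called. By hairpin, 11 of the 30 fell with shHDAC3#1, 7 with shHDAC3#2, 2 with shDNMT1#1 and 10 with shDNMT1#2. The share of all genes called lower was 16.6%, 9.54%, 6.81% and 15.2% in that order.

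The NCoR/SMRT complex holds HDAC3 itself. Of its 5 other listed subunits 3 were measured, of which 2 fell in HDAC3 knockdown and 1 in DNMT1 knockdown, beside the same 15.3% and 13.5% of all genes. TBL1XR1, an exchange factor of the complex, fell in HDAC3 knockdown (-1.19 ± 0.08 SE, limma adjusted p = 2.5e-09) and gave -0.17 in DNMT1 knockdown (adjusted p = 0.141). GPS2, another core subunit, fell in both (-0.70 and -0.49), though 0 of the 3 were called lower with shDNMT1#1, beside 6.81% of all genes. With shDNMT1#2, 2 of the 3 were called lower, beside 15.2% of all genes. So were 2 with shHDAC3#1 and 2 with shHDAC3#2, beside 16.6% and 9.54%. Of 4 MEF2 factors, the DNA-binding partners of class IIa enzymes, 3 were measured. MEF2A fell in both (-0.48 in HDAC3 knockdown and -0.56 in DNMT1 knockdown). So did MEF2C (-0.22, limma adjusted p = 0.0499, and -0.38, limma adjusted p = 1.0e-03), again beside 15.3% and 13.5% of all genes. By hairpin, 2 of the 3 fell with shHDAC3#2 and with shDNMT1#1, but 1 with shHDAC3#1 and with shDNMT1#2. The share of all genes called lower was 9.54%, 6.81%, 16.6% and 15.2% in that order.

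The genes most like a member were sought for HDAC9, HDAC2 and HDAC7, the 3 members with the widest range of group means (1.04, 0.86 and 0.55). The measure was Pearson's r over the 10 arrays, among 11391 genes with a mean of at least 6, and it describes these 10 arrays, which share hairpins and normalization. For HDAC9 the genes were CCNA2, which encodes cyclin A2 (r = 0.989), ZBTB38, a zinc finger protein that binds methylated DNA (0.978), and LMNB1, which encodes lamin B1 (0.975). For HDAC2 they were the lysine methyltransferase SMYD2 (0.994), the ubiquitin-conjugating enzyme UBE2E3 (0.994) and the sialomucin CD164 (0.993). For HDAC7 they were the protocadherin PCDHB3 (0.983), complement factor B, CFB (0.968), and the chloride transporter CLCN7 (0.965).

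CCNA2 had group means of 7.72 in shHDAC3#1, 6.82 in shHDAC3#2, 6.84 in shDNMT1#1 and 6.73 in shDNMT1#2, against 8.25 in shLuc, the same order as HDAC9 for the 2 highest groups. SMYD2 had 7.25, 7.71, 7.73 and 7.34 in the same 4 knockdown groups, against 7.96 in shLuc. In SMYD2, as in HDAC2, shHDAC3#1 was lowest and shDNMT1#2 next.

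**Figure D5:**
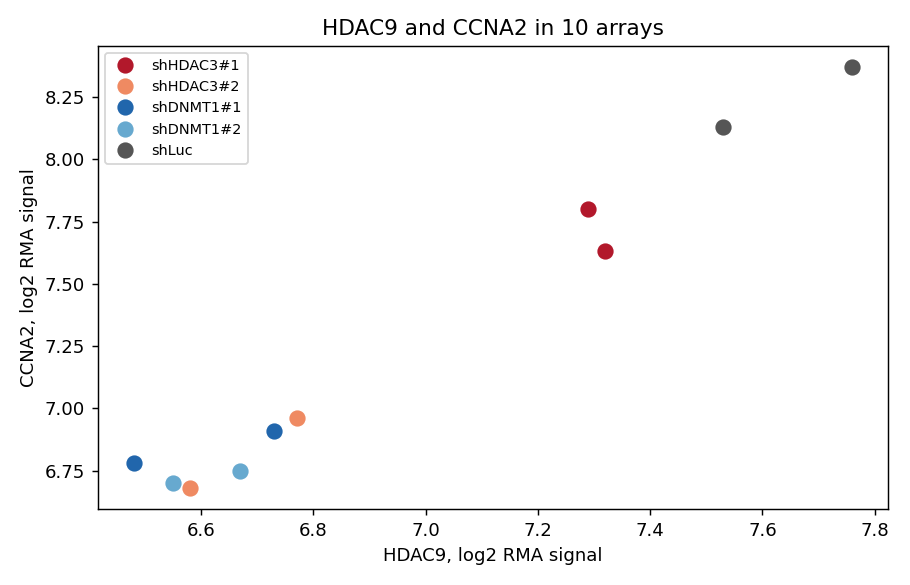
Log2 RMA signal of CCNA2 (vertical axis) against that of HDAC9 (horizontal axis) in the 10 arrays, coloured by group. The 6 arrays of shHDAC3#2 and both DNMT1 hairpins lie together at the low end, shHDAC3#1 lies in between and shLuc at the high end, and the r of 0.989 spans these clusters.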

How the data were processed

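The values are log2 signals of 54675 probe sets, which the authors made by RMA according to the submitters' processing notes. In RMA, background is corrected, arrays are quantile-normalized and probes are summarised. The sources used here give neither its version nor whether all arrays went through 1 run. That the deposited values are on a log2 scale was read from their range. RMA compresses changes of dim probe sets, and precision is limited by the number of arrays.

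Names of probe sets came from the platform annotation: 41097 had 1 gene symbol, 1801 several and 11777 none, and only the first kind was used. Of these, 41043 matched RefSeq (GRCh38.p14) by gene ID. The brightest probe set represented each of 19775 genes. All 5 groups entered 1 model in limma 3.58.1 (R 4.3.3; lmFit, eBayes with a trend), with 5 residual degrees of freedom. For a knockdown, its 2 hairpin groups were averaged and shLuc subtracted. Tests were two-sided and p-values were adjusted by Benjamini-Hochberg over all genes, or over all 41097 probe sets where other probe sets are given. Errors are limma's standard errors, and leave out variation between hairpins. The test was checked on simulated data.

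The members, gene lists and tests were chosen with earlier results of these data known. Named genes were all members and both targets, at most 3 called members with the largest change per list and knockdown, and the 3 genes most like each of 3 members. The alternatives were a limit of 5 on the mean signal, averaging all probe sets of a gene, using no cross-hybridizing probe sets (_s_at, _x_at and _a_at), quantile normalization, median centring, no variance trend, array weights, fitting just the arrays compared, a replicate block, a random hairpin block, leaving out each array, and 2 added after seeing the data: shHDAC3#2 alone for HDAC3 knockdown, and the array SD as a covariate.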

Additional observations from a re-analysis of the deposited data

Results flagged for a closer look

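By brightest probe set, differences between knockdowns, or between hairpins of 1 target, passed the test of the difference for 4 of the 10 genes. Beside this, 9.59% of all genes were called between the knockdowns, 12.6% between the HDAC3 hairpins and 12% between the DNMT1 hairpins. The share of all genes called in any of these comparisons was not worked out, so the count of 4 has no direct match. HDAC9 (-0.38, adjusted p = 3.6e-03) and HDAC7 (-0.28, adjusted p = 8.0e-03) were lower in DNMT1 knockdown than in HDAC3 knockdown, by limma with n = 4 against 4 arrays. With all probe sets of a gene averaged, both calls were lost (-0.16, adjusted p = 0.2, and -0.14, adjusted p = 0.159). Each difference came from 1 hairpin. Against shHDAC3#2, HDAC9 was -0.07 with either DNMT1 hairpin (limma adjusted p = 0.967 and 0.776), and against shHDAC3#1 it was -0.7 with either. HDAC7 was not called for shDNMT1#1 against shHDAC3#1 (-0.19) or shHDAC3#2 (-0.01), but was for shDNMT1#2 (-0.55 and -0.37). Other probe sets were called too, by limma over 41097 probe sets. HDAC6 206846_s_at was higher in DNMT1 knockdown than in HDAC3 knockdown (0.34, limma adjusted p = 0.019). For shHDAC3#2 minus shHDAC3#1, HDAC6 211722_s_at gave -0.38 (limma adjusted p = 0.0283) and HDAC5 202455_at 0.38 (limma adjusted p = 0.0337).

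For shHDAC3#2 minus shHDAC3#1 (limma, n = 2 against 2 arrays), HDAC2 was higher by 0.55 (adjusted p = 4.7e-04) and HDAC9 lower, at -0.63 (adjusted p = 6.0e-04). The hairpin with the smaller change of HDAC2 was thus the one with the larger change of HDAC9. For shDNMT1#2 minus shDNMT1#1, HDAC2 gave -0.39 (adjusted p = 0.0137), HDAC7 -0.36 (adjusted p = 0.0152) and HDAC5 0.32 (adjusted p = 0.0429). Each of these 3 calls was lost without shDNMT1#2 replicate 1 (adjusted p of 0.0686, 0.0671 and 0.151) and without shDNMT1#2 replicate 2 (0.103, 0.116 and 0.163). Hairpin sequences were not used here, and matches of a hairpin to these transcripts were not tested.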

How the results depend on the processing

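The counts of called members were set by a few choices, whose causes were not tested. With all probe sets of a gene averaged, the count was 1 in HDAC3 knockdown (3 as reported), 2 in DNMT1 knockdown (4), 1 between the knockdowns (2; the 1 was HDAC5, not HDAC9 or HDAC7), 1 with shHDAC3#1 (4), 0 with shHDAC3#2 (1, with 3 at an unadjusted p under 0.05 by limma), 2 with shDNMT1#2 (5), and 0 between the HDAC3 hairpins (2) and 0 between the DNMT1 hairpins (3), with 3 and 2 at an unadjusted p under 0.05. With the random hairpin block (consensus correlation 0.35) it was 0 in both knockdowns, where 73 and 31 of all genes were called. With the array SD as a covariate it was 0 in HDAC3 knockdown, DNMT1 knockdown, shHDAC3#1, shDNMT1#2 and between the DNMT1 hairpins (0, 1, 1, 0 and 2 at an unadjusted p under 0.05 by limma), where 114 and 119 of all genes were called in the 2 knockdowns. That covariate overlaps with knockdown, since the SD was lower in every knockdown array than in shLuc. The count was 5 in HDAC3 knockdown after quantile normalization and 1 with shHDAC3#2 alone. It was 2 with shHDAC3#1 without cross-hybridizing probe sets, without the trend and under the replicate block, 2 with shHDAC3#2 with the limit on signal and with array weights, and 1 between the knockdowns without cross-hybridizing probe sets. That last setting leaves out HDAC6, HDAC3 and DNMT1. Where no count of all genes is given for a setting, the count of members cannot be set against all genes. A lower count there is no result about the members alone.

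Leaving out 1 array gave 2 to 4 calls in HDAC3 knockdown, 2 to 5 in DNMT1 knockdown, 2 to 3 between the knockdowns, 1 to 5 with shHDAC3#1, 1 to 2 with shHDAC3#2, 1 to 2 with shDNMT1#1, 3 to 5 with shDNMT1#2, 2 to 3 between the HDAC3 hairpins and 0 to 3 between the DNMT1 hairpins. Of all genes, 1410 to 4598 were called in HDAC3 knockdown and 1365 to 4875 in DNMT1 knockdown in these fits. The lone array of such a group was assumed to vary like the other groups. For the other comparisons no count of all genes is given, so their counts of members cannot be set against all genes. HDAC2 and HDAC9 stayed called in both knockdowns in all 10 of these fits.

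Direction turned in 6 called values. Without cross-hybridizing probe sets, HDAC7 was 0.01 between the knockdowns (adjusted p = 0.979) and 0.21 between the DNMT1 hairpins (0.345). With the array SD as a covariate, HDAC1 was 0.06 in DNMT1 knockdown (0.964), 0.23 with shHDAC3#1 (0.911) and 0.15 with shDNMT1#2 (0.906). HDAC9 was then 0.03 with shHDAC3#1 (0.999). As every knockdown array had a lower SD than shLuc, values under that covariate cannot separate SD from knockdown. Of 921 values of the 10 genes under alternatives, 834 kept their side of the threshold, 60 lost a call and 21 gained one; 45 values called on neither side changed sign. Of 900 values with 1 array left out, 848 kept their side, 37 lost a call and 15 gained one.

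The replicate numbers did not pair the arrays: deviations of same-numbered arrays correlated between -0.34 and 0.27. Under the replicate block HDAC11 in DNMT1 knockdown was no longer called (adjusted p = 0.05 after rounding), nor were HDAC1 (0.0654) and HDAC9 (0.0519) with shHDAC3#1. Scaling moved the median of all genes by less than 0.1.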

Other observations

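Sirtuins, the class III deacetylases that use NAD, were all 7 measured, and 1 fell in each knockdown, beside 15.3% of all genes in HDAC3 knockdown and 13.5% in DNMT1 knockdown. It was SIRT1, the nuclear sirtuin that deacetylates p53 and histones, with a log2 change of -0.54 ± 0.14 (SE) in HDAC3 knockdown (limma, adjusted p = 7.4e-03) and -0.66 ± 0.14 in DNMT1 knockdown (adjusted p = 1.5e-03). The median of the 7 was 0.11 in HDAC3 knockdown and -0.03 in DNMT1 knockdown, beside 0.05 and 0.07 for all genes. By hairpin, 2 of the 7 rose and 1 fell with shHDAC3#1, beside 7.83% and 16.6% of all genes. With shDNMT1#2, 0 rose and 1 fell, beside 11.6% and 15.2%. With shHDAC3#2 or shDNMT1#1, 0 of the 7 rose and 0 fell, where 9.54% and 6.81% of all genes fell. SIRT1 was thus called with at most 1 hairpin of each target.

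Of 6 listed genes that inhibitors of histone deacetylases are known to induce, 5 were measured. In HDAC3 knockdown 1 rose and 2 fell, and in DNMT1 knockdown 2 rose and 2 fell. Of all genes, 3.96% rose and 15.3% fell in HDAC3 knockdown, and 6.66% rose and 13.5% fell in DNMT1 knockdown. The cell cycle inhibitor CDKN1A rose in both, by 0.29 in HDAC3 knockdown (adjusted p = 0.0102) and by 1.15 in DNMT1 knockdown (adjusted p = 2.5e-09). TXNIP, which binds thioredoxin, fell in both (-1.04 and -0.49), as did the small GTPase gene RHOB (-0.96 and -0.87). These calls did not hold with each hairpin. With shHDAC3#2, 0 of the 5 rose and 1 fell, beside 9.54% of all genes called lower and 10.9% in either direction. With shDNMT1#1, 2 rose and 0 fell, beside 6.81% called lower and 8.15% in either direction. CDKN1A was thus not called higher with shHDAC3#2, nor TXNIP or RHOB lower with shDNMT1#1.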
